A study of Rattus norvegicus with 8 samples.

Results

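The genes of the lysosomal proton pump, the cathepsins and the lysosome-associated membrane proteins (LAMPs) were described in PBMCs, peripheral blood mononuclear cells (lymphocytes with monocytes), that had been cultured with plasma of adult rats. Members were taken by their symbols: every gene with the stem *Atp6v0*, *Atp6v1* or *Atp6ap*, every cathepsin with a letter name and *Lamp1* to *Lamp5*, where a probe set carries that symbol alone. This gave 44 of the 14217 genes on the array, each represented by its brightest probe set. There were 23 genes of the vacuolar ATPase, 17 cathepsins and 4 LAMPs. *Atp6v0d2* and *Ctsg* have no such probe set here and were not analysed.

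The PBMCs came from 2 healthy male Brown Norway (BN) rats about 180 days old, BN1 and BN2, and 500000 cells per culture were kept for 6 h in medium with 20% plasma. Normoxic control plasma was a pool from 8 male Sprague-Dawley (SD) rats that breathed 21% oxygen as neonates, 5% intermittent hypoxia (IH) plasma a pool from 5 and 10% IH plasma a pool from 3, exposed to IH for 1 h daily on postnatal days 2 to 6. All SD rats were bled as adults (PD114) after an overnight fast, and autologous BN plasma gave the background. There were 8 arrays, 2 per plasma, 1 from each donor. Since each plasma pool was made 1 time, no error or p-value here measures how plasma donors or pools differed. Standard errors, and the intervals and p-values made from them, rest on the 2 arrays of a group. In these the cell donor, the culture and the array cannot be told apart. The labels of the autologous arrays disagree on which donor gave the cells and which the plasma. SD and autologous plasma differ together in strain, age, housing and in being foreign or own to the cells, which cannot be told apart. The paper counts autologous plasma among its pooled samples but gives no number of rats for it. An overnight fast is stated for the SD rats alone.

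The vacuolar ATPase acidifies lysosomes. Its V1 sector hydrolyses ATP in the cytosol, its V0 sector carries protons through the membrane, and accessory proteins help to assemble and place it. Cathepsins are proteases that work best in this acid interior, and LAMPs coat the inner face of the lysosomal membrane. Monocytes and macrophages are rich in these proteins, with which they digest what they engulf, while lymphocytes use smaller amounts.

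Values are log2 signals made by the authors, and a difference of 1 is a doubling. A gene met the study's criterion in a comparison when its Rank Product p was under 0.05 and the log2 ratio of the group means lay beyond 0.263, which is 1.2-fold. The Rank Product p is taken against values reordered within each array, not against a spread between donors. A linear model for all probe sets, limma, gives the standard errors (SE) and the p-values adjusted by Benjamini-Hochberg, each with 2 arrays per group. Array medians were 5.53 to 5.56. Markers of T cells, B cells, NK cells and monocytes were all present. Platelet and red cell transcripts were bright as well. Of the 44 genes, 35 were at or above the 40th percentile of mean level over all probe sets and 9 were under it (*Atp6v0a4*, *Atp6v1b1*, *Atp6v1g2*, *Ctsj*, *Ctsm*, *Ctsq*, *Ctsr*, *Lamp3* and *Lamp5*), where ratios are less certain. *Ctsj*, *Ctsm*, *Ctsq* and *Ctsr* belong to a rodent group of cathepsins known from the placenta.

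Promoters were set beside the levels, because lysosomal genes are known to share a site for the transcription factor TFEB and its relatives, the CLEAR element. RefSeq promoters of build GRCr8, from 250 bases before to 50 after the start of a gene, were matched for 37 of the 44 genes by gene ID. The 8 core letters TCACGTGA, which read the same on both strands, were found in 4 of the 37 promoters (10.8%), those of *Atp6v0d1*, *Atp6v0e1*, *Ctsd* and *Lamp1*, against 0.777% of the 33469 promoters in the table. The shorter E-box CACGTG, which lies inside the core, was in 5 (13.5%, adding *Ctsf*) against 6.42% of all promoters. The AP-1 motif TGANTCA was in 2 (*Atp6v0b* and *Atp6v1a*) against 7.33%, the Sp1 motif GGGCGG in 23 (62.2%) against 33.1%, and the PU.1 motif GAGGAAG in 8 (21.6%) against 12.4%, all on either strand. A match is a description of letters and not a bound site. The promoters of *Ctsl* (chr17:769854-770153, plus strand) and *Ctsz* (chr3:183653798-183654097, minus strand) are shown because these genes differed most between control and autologous plasma. Those of *Ctsd* (chr1:206968772-206969071, minus strand) and *Atp6v0d1* (chr19:50357199-50357498, minus strand) are shown for the core, in capitals, which begins 11 bases before the start of *Ctsd* and 53 before that of *Atp6v0d1*.
Ctsl: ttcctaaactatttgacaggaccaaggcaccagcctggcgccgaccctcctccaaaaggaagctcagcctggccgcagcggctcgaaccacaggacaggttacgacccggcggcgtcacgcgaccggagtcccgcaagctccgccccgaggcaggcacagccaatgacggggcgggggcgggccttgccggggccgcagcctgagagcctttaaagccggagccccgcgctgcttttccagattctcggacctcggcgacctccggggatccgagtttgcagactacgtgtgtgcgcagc
Ctsz: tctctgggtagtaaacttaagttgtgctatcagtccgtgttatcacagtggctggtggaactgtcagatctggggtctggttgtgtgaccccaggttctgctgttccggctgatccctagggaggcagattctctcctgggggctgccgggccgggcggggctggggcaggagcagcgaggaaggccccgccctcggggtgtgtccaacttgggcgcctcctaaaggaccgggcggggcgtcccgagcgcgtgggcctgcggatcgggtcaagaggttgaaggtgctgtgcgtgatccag
Ctsd: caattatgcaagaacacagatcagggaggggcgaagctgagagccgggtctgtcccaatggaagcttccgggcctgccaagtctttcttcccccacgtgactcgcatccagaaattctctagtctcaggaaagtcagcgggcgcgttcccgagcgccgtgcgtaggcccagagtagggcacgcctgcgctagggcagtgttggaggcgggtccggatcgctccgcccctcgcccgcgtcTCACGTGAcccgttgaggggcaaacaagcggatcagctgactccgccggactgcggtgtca
Atp6v0d1: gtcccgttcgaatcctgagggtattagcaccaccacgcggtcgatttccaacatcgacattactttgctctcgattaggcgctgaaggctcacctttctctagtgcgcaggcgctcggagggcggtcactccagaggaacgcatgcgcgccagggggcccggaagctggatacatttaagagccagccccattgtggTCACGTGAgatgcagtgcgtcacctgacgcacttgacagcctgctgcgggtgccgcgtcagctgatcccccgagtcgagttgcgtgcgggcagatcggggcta

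The first comparison, normoxic control with autologous plasma, gives the background of foreign plasma. In it 10 of the 44 genes were higher (22.7%) and 0 were lower by the study's criterion, against 6.16% of all genes higher and 3.97% lower (10.1% in either direction). The 10 were *Ctsl*, *Ctsz*, *Ctsb*, *Ctsh* and *Ctsd* among the cathepsins, *Atp6ap2*, *Atp6v1a*, *Atp6v1b2* and *Atp6v1g3* of the proton pump, and *Lamp3*. The median log2 ratio over the 44 genes was 0.03, and -0.01 over all genes, so that most members lay near 0 and a minority rose. In limma 4 of the 44 had an adjusted p under 0.05 (*Ctsl*, *Ctsz*, *Ctsb* and *Atp6ap2*), against 2.44% of all genes, and 10 had an unadjusted p under 0.05 (22.7%), against 10.6%. The arrays did not overlap for 15 members that were higher (34.1%, against 19.7% of all genes) and 5 that were lower (11.4%, against 20.9%). The limma number was 2 without the BN1 array of control (*Ctsl* and *Ctsb*), 1 without its BN2 array (*Ctsl*), 3 without the BN1 array of autologous plasma (*Ctsl*, *Ctsz* and *Ctsb*) and 2 without its BN2 array (*Ctsl* and *Atp6ap2*).

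**Figure D1:**
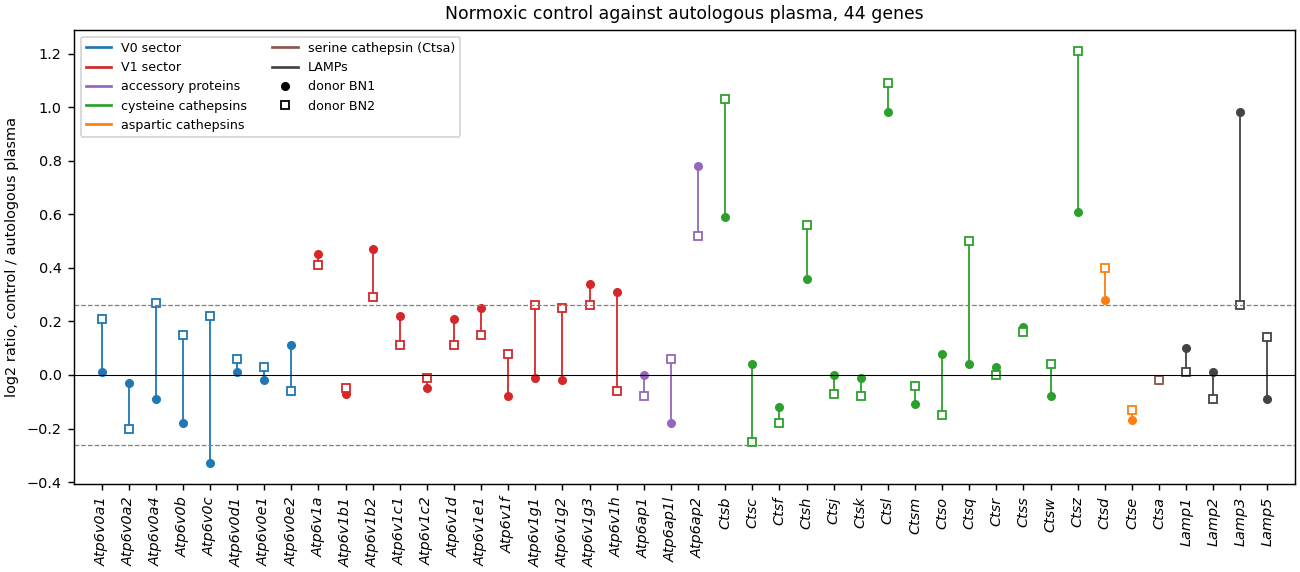
Log2 ratio of normoxic control to autologous plasma for each of the 44 genes (x axis, grouped and coloured by role) in cells of donor BN1 (filled circle) and donor BN2 (open square), joined by a line, with the 1.2-fold threshold (0.263 up or down) dashed. Arrays are paired by number, and the labels of the autologous arrays disagree on the donor. *Ctsl*, *Ctsz*, *Ctsb*, *Ctsh*, *Ctsd*, *Atp6ap2*, *Atp6v1a* and *Atp6v1b2* lie above the threshold in both donors, whereas the 8 V0 genes have no member above it in both.

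*Ctsl*, the cysteine protease cathepsin L, differed most. Its log2 signals were 7.76 and 7.82 with autologous plasma (BN1 and BN2), 8.74 and 8.91 with control, 8.93 and 9.09 with 5% IH and 8.72 and 8.66 with 10% IH plasma. Every array with SD plasma lay above both autologous arrays. Control plasma gave a 2.05-fold level (log2 ratio 1.04, SE 0.101, n = 2 arrays per group, limma adjusted p = 0.00083), and the dimmer probe set of the gene met the criterion as well (0.72).

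*Ctsz*, the carboxypeptidase cathepsin X, had log2 signals of 7.67 and 7.25 with autologous plasma, 8.28 and 8.46 with control, 8.48 and 8.53 with 5% IH and 8.55 and 8.37 with 10% IH plasma. The groups did not overlap. With arrays paired by number, the difference from autologous plasma was 1.21 in BN2 and 0.61 in BN1. The labels of the autologous arrays disagree on the donor, so these are not certain to be differences within a donor. The mean log2 ratio of control to autologous was 0.91 (SE 0.142, adjusted p = 0.013 from limma).

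*Ctsb*, the cysteine protease cathepsin B, had 9.62 and 9.46 with autologous plasma, 10.22 and 10.49 with control, 10.38 and 10.62 with 5% IH and 10.38 and 10.55 with 10% IH plasma. It was 1.75-fold higher with control than with autologous plasma (log2 ratio 0.81, SE 0.131, adjusted p = 0.0151 from limma). *Ctsh*, an aminopeptidase, was higher by 0.46 (SE 0.103), with 8.97 and 8.77 in autologous plasma and 9.33 and 9.34 in control, and its adjusted p from limma was 0.0759. *Ctsd*, the main aspartic protease of lysosomes, had 9.0 and 9.12 with autologous and 9.28 and 9.53 with control plasma, a ratio of 0.34 (SE 0.131, adjusted p = 0.403 from limma). Without the BN2 array of control the ratio of *Ctsd* was 0.22, under the fold threshold, and without the BN1 array of autologous plasma it was 0.28 and its Rank Product p missed 0.05.

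The other 12 cathepsins did not meet the criterion. *Ctss*, which trims the invariant chain of MHC class II, had 10.34 and 10.35 with autologous plasma and 10.52 and 10.51 with control (log2 ratio 0.17, 95% confidence interval -0.02 to 0.36), so that the arrays did not overlap but the difference lay under 1.2-fold. *Ctse*, a second aspartic protease, had 11.02 and 11.00 against 10.85 and 10.87, a ratio of -0.15 (interval -0.33 to 0.04). *Ctsc*, which activates granule proteases, *Ctsw*, a cathepsin of cytotoxic lymphocytes, and *Ctsa*, the serine carboxypeptidase also called protective protein, had ratios of -0.11, -0.02 and -0.02. *Ctsq* had 0.27, from 0.04 in BN1 and 0.50 in BN2 with arrays paired by number, and a mean level at percentile 7.66. It met the criterion without the BN1 array of control (0.57).

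Within the proton pump 3 of the 12 V1 genes were higher by the criterion (25%), with a median ratio of 0.14, and 0 of the 8 V0 genes were, with a median of 0.01 and a range of -0.11 to 0.11. The share of all genes was 6.16%, and no test between the sectors was made. *Atp6v1a*, the catalytic subunit, had log2 signals of 7.83 and 7.91 with autologous, 8.28 and 8.32 with control, 8.36 and 8.21 with 5% IH and 8.23 and 8.18 with 10% IH plasma. Its ratio of control to autologous was 0.43 (SE 0.0914, adjusted p = 0.0634 from limma), and its other probe set had 0.24. *Atp6v1b2*, a B subunit of the V1 sector, had 8.63 and 8.76 with autologous and 9.10 and 9.04 with control plasma, a ratio of 0.38 (SE 0.0974), and 0.55 by its other probe set. *Atp6v1g3* met the criterion (0.30) but had 0.14 without the BN1 array of control, 0.18 without the BN2 array of autologous plasma and 0.26 when its probe sets were averaged, all under the threshold.

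*Atp6ap2*, the accessory protein also known as the prorenin receptor, had log2 signals of 8.85 and 9.09 with autologous plasma, 9.63 and 9.61 with control, 9.72 and 9.72 with 5% IH and 9.53 and 9.62 with 10% IH plasma. It was 1.57-fold higher with control than with autologous plasma (log2 ratio 0.65, SE 0.102, adjusted p = 0.0141 from limma), and 0.71 higher by its other probe set. Its partner *Atp6ap1* had a ratio of -0.04 (95% confidence interval -0.29 to 0.21). The other V1 genes with small differences included *Atp6v1e1* (0.20), *Atp6v1c1* (0.17) and *Atp6v1d* (0.16), none of which met the criterion.

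The LAMPs *Lamp1* and *Lamp2*, the most abundant proteins of the lysosomal membrane, stayed near their autologous level. *Lamp1* had 9.38 and 9.43 with autologous and 9.49 and 9.43 with control plasma (log2 ratio 0.05, 95% confidence interval -0.16 to 0.27). *Lamp2*, which also serves chaperone-mediated autophagy, had 10.09 and 10.14 against 10.09 and 10.04 (-0.04, interval -0.25 to 0.17). *Lamp3*, which is known from mature dendritic cells, met the criterion at 0.62 but lay at a low level and differed between donors. Its log2 signals were 3.76 and 3.56 with autologous and 4.75 and 3.82 with control plasma, and its ratio was 0.16 without the BN1 array of control and 1.08 without its BN2 array.

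**Figure D2:**
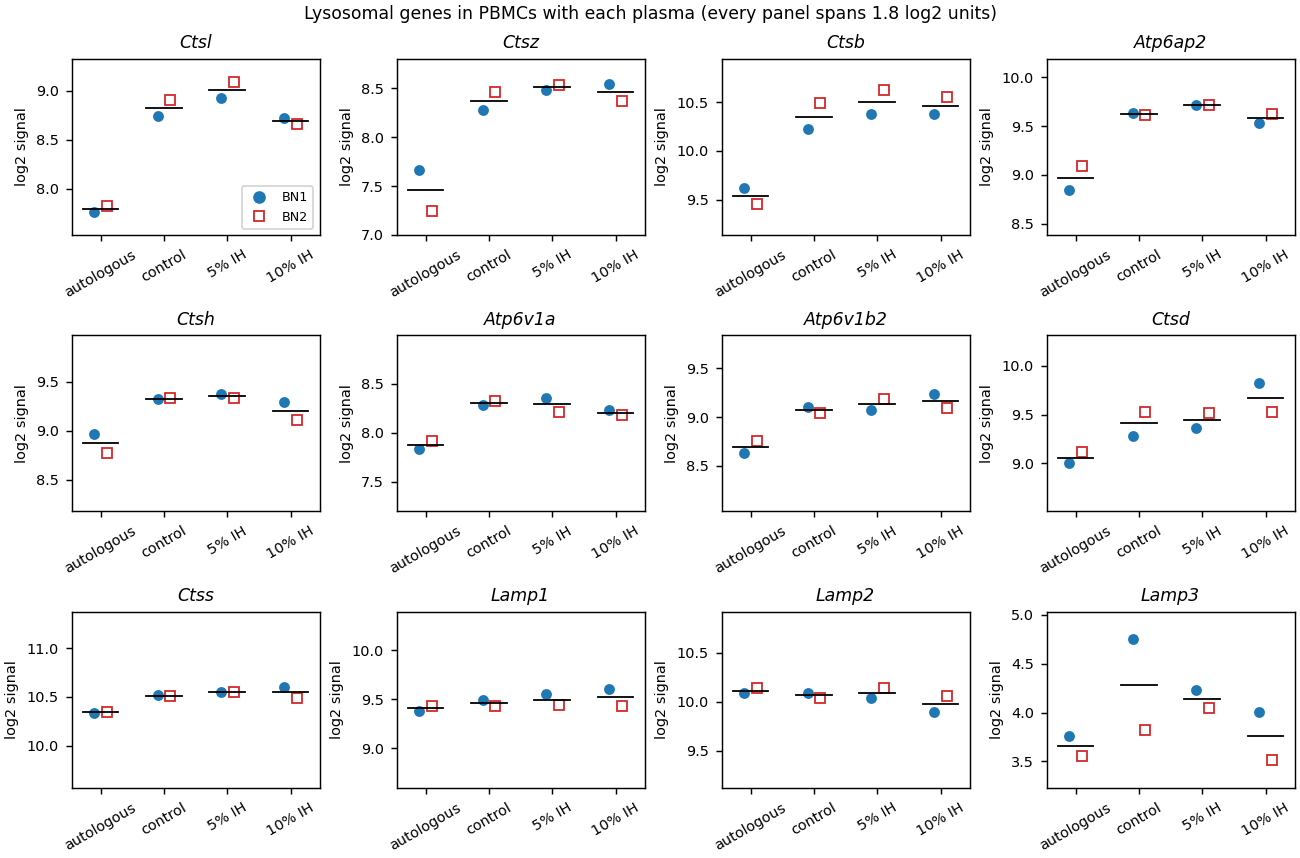
Log2 signal (y axis, every panel spanning the same width) of 12 genes on each array, by plasma (x axis), with donor BN1 as filled circles, donor BN2 as open squares and a bar at the mean of each group of 2. *Ctsl*, *Ctsz*, *Ctsb* and *Atp6ap2* lie higher with every SD plasma than with autologous plasma, *Ctss*, *Lamp1* and *Lamp2* stay within a narrow band, and *Lamp3* separates the donors with control plasma (4.75 and 3.82).

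Over all 3 SD plasmas, 14 of the 44 genes (31.8%) had all 6 arrays above both autologous arrays, against 9.1% of all genes, and 1 (*Ctse*, 2.27%) had all 6 below, against 7.13%. The values were compared as deposited with no tolerance, and the gap between the groups was 0.00 for *Atp6v1g3* at 2 decimals, 0.01 for *Lamp1* and 0.04 to 0.84 for the other 12. The 6 arrays come from the same 2 donors and share the autologous arrays. The 14 included 6 of the V1 genes (*Atp6v1a*, *Atp6v1b2*, *Atp6v1c1*, *Atp6v1d*, *Atp6v1e1* and *Atp6v1g3*) and *Atp6ap2*, but no V0 gene. *Ctsl*, *Ctsz*, *Ctsb*, *Ctsd*, *Ctsh*, *Ctss* and *Lamp1* completed it. Relative to autologous plasma, the mean log2 differences with control, 5% IH and 10% IH plasma were 1.04, 1.22 and 0.90 for *Ctsl*, 0.91, 1.05 and 1.00 for *Ctsz* and 0.81, 0.95 and 0.92 for *Ctsb*. They were 0.65, 0.75 and 0.60 for *Atp6ap2* and 0.34, 0.37 and 0.61 for *Ctsd*.

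Markers of monocytes moved with these genes. Of 6 markers 5 were higher with control than with autologous plasma by the criterion (6.16% of all genes were), and the log2 of their summed signal was 8.64 and 9.45 with autologous plasma and 11.55 to 12.02 on the 6 arrays with SD plasma. *Cd14*, the lipopolysaccharide co-receptor, differed by 5.28, *Csf1r*, the receptor of the monocyte growth factor M-CSF, by 2.89 and *Lyz2*, lysozyme, by 2.45. The sixth marker, *Cd163*, was dim and differed by 0.01. Of 8 T cell markers 0 met the criterion, with a summed signal of 12.93 to 13.05 on all 8 arrays. The summed signal of 4 B cell markers was 11.36 and 11.10 with autologous plasma and 11.25 to 11.66 with SD plasma, and 1 of them was higher with control than with autologous plasma (*Blk*, a B cell kinase, 0.77, limma adjusted p = 0.0224). Of 7 neutrophil markers, 5 of them dim, 3 were higher (*Csf3r*, the G-CSF receptor, 0.87, limma adjusted p = 0.0195, *S100a8*, 0.34, and *Camp*, 0.33), with a summed signal of 7.20 and 7.73 with autologous and 7.50 to 7.86 with SD plasma. Of 6 NK cell markers 1 was lower (*Gzmb*, -0.33), and of 5 platelet markers 0 met the criterion, with a summed signal of 12.69 to 13.01 over all arrays. In a bulk culture, fewer monocytes and less RNA per monocyte cannot be told apart, and the part of monocyte, neutrophil or B cell transcripts in the cathepsin and proton pump differences was not tested.

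Other genes of the lysosome and of phagocytes, from lists of textbook genes, were set beside the members. The share of all genes higher with control than with autologous plasma was 6.16% by the criterion and the share past limma's adjusted p 2.44%, beside which the counts of these lists stand. Of 28 other lysosomal hydrolases and their cofactors measured, 4 were higher: *Acp2*, lysosomal acid phosphatase (1.19), *Lgmn*, the asparaginyl protease legumain that processes cathepsins (0.71), *Psap*, the precursor of saposins (0.65), and *Manba*, beta-mannosidase (0.62). Of 18 genes for membrane proteins and sorting, 3 were higher, *Cd63* (2.30), a tetraspanin of late endosomes, *Cd68* (0.96), a LAMP relative of macrophages, and *Laptm4b* (0.29). The median was 0.05 in each list, and limma's adjusted p was under 0.05 for 3 and 2 of these genes.

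Of 16 regulators of the lysosome 4 were higher (25%, against 6.16% of all genes). They were *Tfec* (1.61), *Mitf* (1.22) and *Tfe3* (0.45), relatives of TFEB that bind the same core, and *Fnip2* (1.00), a partner of folliculin, while *Tfeb* itself had 0.02. The mean level of *Tfec* was at percentile 34.8, where ratios are less certain, and limma's adjusted p for *Tfe3* was 0.0715. The 4 members with that core in the promoter had ratios of 0.34 (*Ctsd*), 0.05 (*Lamp1*), 0.04 (*Atp6v0d1*) and 0.00 (*Atp6v0e1*). *Ctsl* and *Ctsz*, which differed most, hold no such core in the promoters shown above, and *Ctsb* had no matched promoter. Sites outside these stretches were not searched, and whether the regulators act on the members was not tested. Among 5 cystatins, the inhibitors of cysteine cathepsins, *Cst7* (1.15) and *Cstb* (0.93) were higher and *Cst3* (-0.38), the secreted cystatin C, was lower. Of 15 phagocytic receptors and oxidase subunits 9 were higher (60%), with a median of 0.46. By limma's adjusted p, 3 of the regulators, 2 of the cystatins and 6 of the phagocytic genes passed, against 2.44% of all genes. Examples of the last were *Fcgr1a*, the high-affinity IgG receptor (3.24), *Clec7a*, the beta-glucan receptor dectin-1 (2.38), *Itgam*, an integrin chain of the complement receptor (2.08), and *Fcgr2b* (1.75).

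**Figure D3:**
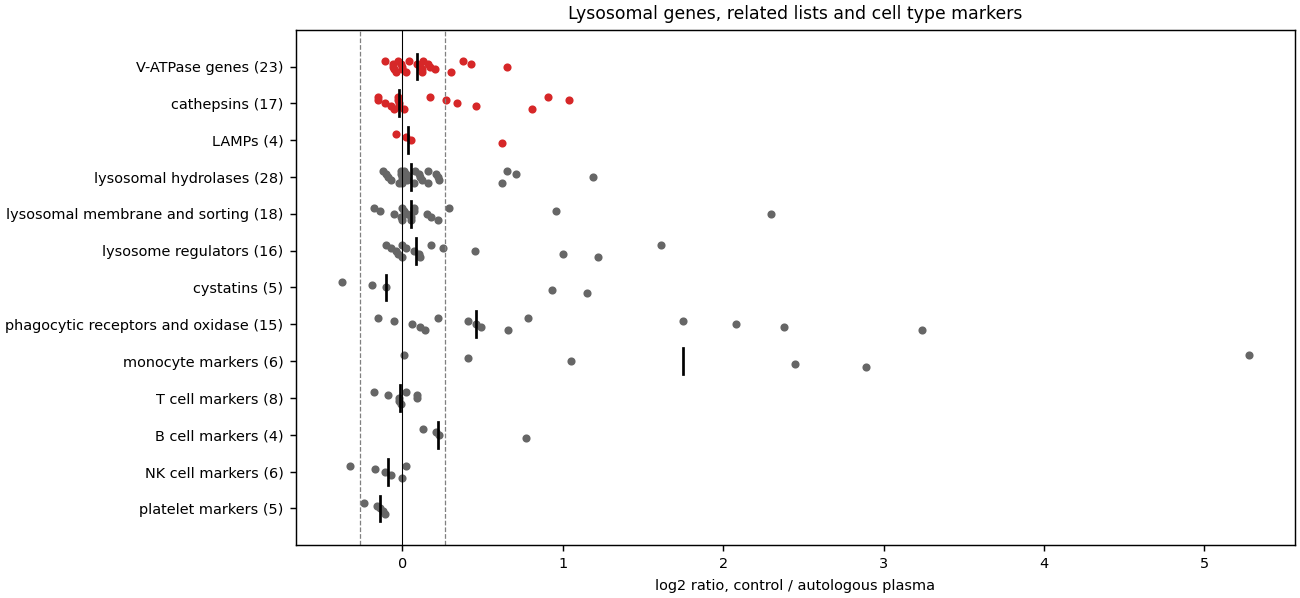
Log2 ratio of normoxic control to autologous plasma (x axis) for each gene (points) of the lists on the y axis, with the number of genes in brackets, black bars at the medians and the 1.2-fold threshold (0.263 up or down) dashed. Proton pump genes, cathepsins and LAMPs, in red, reach 1.04, phagocytic receptors and oxidase genes 3.24 and monocyte markers 5.28, while T cell markers lie between -0.18 and 0.09.

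The comparison of 5% IH with control plasma asks what neonatal hypoxia added. By the criterion it gave 0 higher members and 1 lower member of the 44 (2.27%), against 1.46% of all genes higher and 1.03% lower (2.49% in either direction). The median ratio was 0.03 and all members but *Ctsq* lay between -0.22 and 0.18. In limma 0 had an adjusted p under 0.05 (lowest adjusted p = 1), as had 0 of all genes, and 2 had an unadjusted p under 0.05 (*Ctsq* and *Ctsj*), against 1.94% of all genes. The arrays of the groups did not overlap for 12 members that were higher with 5% IH (27.3%), against 13.2% of all genes, and for 3 that were lower, against 12.3%. The 12 differences were small, since none reached the fold threshold.

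The gene that met the criterion was *Ctsq*, at a level near the floor of the array. Its log2 signals were 2.78 and 3.38 with control and 2.75 and 2.60 with 5% IH plasma, a ratio of -0.41 that came from the BN2 array of control, and it was -0.10 without that array and -0.71 without the BN1 array of control. *Ctsl* had ratios of 0.19 in BN1 and 0.17 in BN2 (mean 0.18, 95% confidence interval -0.05 to 0.41). The ratio was 0.14 for *Ctsb* (interval -0.15 to 0.44), 0.14 for *Ctsz* (-0.18 to 0.46), 0.10 for *Atp6ap2* (-0.13 to 0.34) and -0.01 for *Atp6v1a* (-0.22 to 0.20). With an array left out, other members crossed the fold threshold. They were *Lamp5* (0.29) without the BN1 array of 5% IH, *Atp6v1b1* (0.30) and *Ctsj* (-0.28) without its BN2 array, *Atp6ap1l* (-0.33) and *Lamp3* (0.31) without the BN1 array of control, and *Ctsb* (0.28), *Ctsl* (0.27) and *Lamp3* (-0.61) without its BN2 array.

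Among related genes with 5% IH plasma, 5 lists were counted, against 2.49% of all genes meeting the criterion and 1.46% higher. Of the hydrolases 1 of 28 met it (*Psap*, 0.29, 3.57%), of the regulators 1 of 16 (*Tfec*, 0.27, 6.25%), of the membrane and sorting genes 0 of 18 and of the cystatins 0 of 5. Of the phagocytic receptors and oxidase genes 3 of 15 (20%) were higher (*Fcgr1a* and *Itgam*, 0.28 each, and *Fcgr2b*, 0.27), and of the monocyte markers 2 of 6 (*Adgre1*, 0.54, and *Cd14*, 0.40).

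With 10% IH plasma 1 of the 44 genes was higher than with control (*Ctsd*) and 2 were lower (*Lamp3* and *Ctsq*), 6.82% in all, against 2.04% of all genes higher and 2.26% lower (4.3% in either direction). In limma 0 had an adjusted p under 0.05 (lowest adjusted p = 0.92), as had 0 of all genes, and 0 had an unadjusted p under 0.05, against 4.12% of all genes. The median ratio was 0.04. The dimmer probe set of *Atp6v1b2* met the criterion as higher (0.32) where its brightest did not (0.09). The groups did not overlap for 8 members that were higher (18.2%, against 16.6% of all genes) and 6 that were lower (13.6%, against 17.1%).

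The higher values with 10% IH plasma were mostly those of donor BN1. *Ctsd* had log2 signals of 9.28 and 9.53 with control, 9.36 and 9.52 with 5% IH and 9.82 and 9.53 with 10% IH plasma, so that the BN1 array of 10% IH stood above the rest and the BN2 arrays were level. Its ratio to control was 0.27 (SE 0.131, 95% confidence interval -0.03 to 0.57), with 0.54 in BN1, and without that array it was 0.12 (without the BN2 array of 10% IH it was 0.42). Without the BN1 array of control it was 0.15, under the fold threshold, and it also missed the criterion with a 2-sided p or after quantile normalization again.

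In BN1, 6 members were past the fold threshold upwards (13.6%), against 7.22% of all genes: *Ctsd* (0.54), *Atp6v0d1* (0.43), *Atp6v0c* (0.37), *Ctsa* (0.32), *Atp6ap1* (0.29) and *Ctsz* (0.28). In BN2 these had -0.00, 0.06, 0.11, 0.01, 0.08 and -0.09, and 2 other members were past the threshold there (*Ctsm*, 0.30, and *Atp6v0a1*, 0.28), against 4.12% of all genes. The BN1 ratios of all genes were also spread more widely (standard deviation 0.185, against 0.153 in BN2). Their medians were 0.005 and -0.008. *Atp6v0d1*, a V0 subunit that links the sectors, had 9.84 and 9.94 with control and 10.27 and 9.99 with 10% IH plasma. *Atp6v0c*, the subunit of the proton-carrying ring, had 9.64 and 9.83 with control and 10.01 and 9.94 with 10% IH. All 8 V0 genes had a mean ratio above 0 with 10% IH (median 0.14, range 0.05 to 0.24, 0 past the criterion), and 4 of 12 V1 genes did (median -0.03), as did 7049 of all 14217 genes. The sectors were not tested against each other here either. With the BN2 array of 10% IH left out, *Atp6v0d1* (0.38) and *Ctsa* (0.33) met the criterion, and with the BN2 array of control left out *Atp6v0c* (0.34) did. Without the BN1 array of 10% IH *Ctsm* (0.33) and *Atp6v1b1* (0.28) were past it, and without the BN1 array of control *Atp6ap1l* (-0.33) was.

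**Figure D4:**
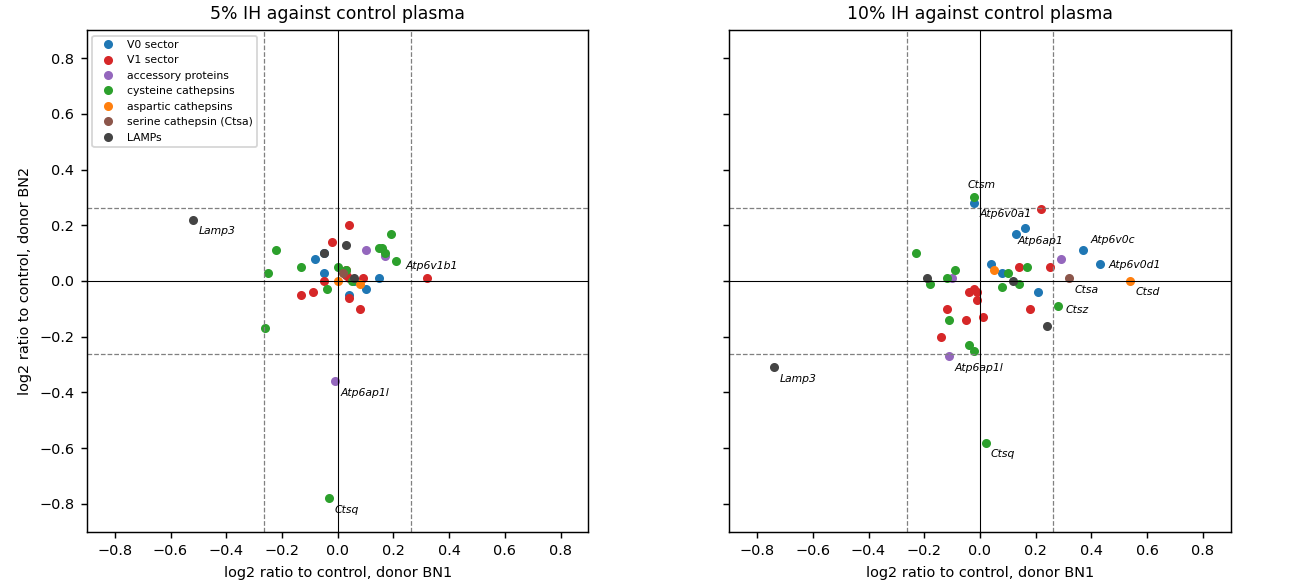
Log2 ratio to normoxic control plasma in donor BN1 (x axis) against donor BN2 (y axis) for the 44 genes, with 5% IH plasma on the left and 10% IH plasma on the right, coloured by role, the 1.2-fold threshold (0.263 up or down) dashed and names for genes past it in a donor. With 10% IH plasma *Ctsd*, *Atp6v0d1*, *Atp6v0c*, *Ctsa*, *Atp6ap1* and *Ctsz* lie past the threshold along the BN1 axis alone, and *Lamp3* (-0.74 and -0.31) is past it in both donors.

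*Lamp3* was lower with 10% IH than with control plasma in both donors, with log2 signals of 4.75 and 3.82 with control and 4.01 and 3.51 with 10% IH plasma. The groups overlapped, and the ratio was -0.53 (SE 0.271, 95% confidence interval -1.14 to 0.09). It rested on the BN1 array of control, without which it was -0.06, and it was -0.99 without the BN2 array of control and -0.28 without the BN2 array of 10% IH. *Ctsq* had -0.28, which was -0.58 without the BN1 array of control and 0.02 without its BN2 array, and averaging its probe sets gave -0.22, under the fold threshold.

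The summed signals of platelet, red cell, monocyte and B cell markers were higher in the same donor as *Ctsd*, though not every marker was. The summed signal of the 5 platelet markers in BN1 was 12.74 with control and 12.98 with 10% IH plasma, and in BN2 12.86 and 12.82. That of the 2 red cell markers was 14.06 and 14.19 in BN1 and 14.11 and 14.12 in BN2, and 1 of them (*Alas2*, 0.31) met the criterion. For the 6 monocyte markers the sum was 11.55 and 11.77 in BN1 and 11.8 and 11.83 in BN2, but *Adgre1* (7.51 and 7.45) and *Cd163* (3.02 and 2.69) were lower in BN1. For the 4 B cell markers it was 11.47 and 11.66 in BN1 and 11.43 and 11.25 in BN2. In BN1 only the brightest, *Cd79b*, was higher (10.68 and 11.07). *Ms4a1* (9.58 and 9.5), *Blk* (7.58 and 7.12) and *Cd22* (7.89 and 7.73) were lower there, and *Blk* met the criterion as lower (-0.39). The BN1 sums differed less for T cells (13.01 and 13.05), NK cells (11.21 and 11.24) and dendritic cells (6.17 and 6.19). That of neutrophils was lower (7.67 and 7.5). The part of these cell types in the BN1 values of *Ctsd*, *Ctsa* and the V0 genes was not tested. By the criterion 2.04% of all genes were higher with 10% IH plasma than with control and 2.26% lower. *Psap* (0.41), 1 of 28 hydrolases, was higher, as was *Clcn7*, the lysosomal chloride transporter (0.36), 1 of 18 membrane and sorting genes. *Cst3* (0.29), 1 of 5 cystatins, was higher too. *Ncf4*, an oxidase subunit (-0.30) and 1 of 15 phagocytic genes, was lower, and 0 of 16 regulators met the criterion.

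Compared directly, 5% IH plasma gave higher values than 10% IH plasma for 3 of the 44 genes (6.82%) and lower values for 0, against 2.62% of all genes higher and 1.85% lower (4.47% in either direction). The arrays did not overlap for 6 members that were higher (13.6%, against 17.3%) and 9 that were lower (20.5%, against 15.1%). The 3 that met the criterion were *Lamp3* (0.38), *Ctsl* (0.32) and *Atp6v1g2* (0.29). In limma 0 had an adjusted p under 0.05 (lowest adjusted p = 0.981), as had 0 of all genes, and 2 (*Ctsl* and *Atp6v1g2*) had an unadjusted p under 0.05, against 4.05% of all genes. *Ctsl*, with 8.93 and 9.09 in 5% IH and 8.72 and 8.66 in 10% IH plasma, did not overlap between the groups and was higher in both donors (0.20 and 0.43). The SE of its difference was 0.101 and the 95% confidence interval 0.09 to 0.55. It fell under the fold threshold without the BN2 array of 5% IH (0.24) and when its probe sets were averaged (0.25). It was 0.28 without the BN2 array of 10% IH, where its Rank Product p missed 0.05.

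*Atp6v1g2*, a V1 subunit known from neurons, had a difference of 0.29 (0.15 leaving out the BN2 array of 5% IH, 0.26 leaving out BN1 of 10% IH), at log2 signals of 3.12 to 3.57 in these groups. *Lamp3* had 0.63 without the BN1 array of 10% IH and 0.13 without its BN2 array. Without the BN2 array of 5% IH, *Atp6v0a4* (-0.29), *Atp6v0c* (-0.28) and *Ctsd* (-0.32) were lower by the criterion, and without the BN2 array of 10% IH *Ctsd* (-0.39) and *Ctsa* (-0.31) were, so that 1 gene stayed higher in each case and 3 and 2 were lower. With all arrays *Ctsd* had -0.24 and *Ctss* -0.00 (95% confidence interval -0.19 to 0.19). Among related genes 2 of 16 regulators were higher with 5% IH by the criterion, *Tfec* (0.36) and *Mitf* (0.30), against 2.62% of all genes. Of 15 phagocytic genes 3 were higher, *Fcgr1a* (0.37), *Ncf4* (0.32) and *Fcgr2b* (0.29). Of 6 monocyte markers 2 were, *Cd14* (0.37) and *Adgre1* (0.55). Of 5 cystatins *Cst7* (0.32) was higher and *Cst3* (-0.33) lower. *Clcn7* (-0.40), 1 of 18 membrane and sorting genes, was lower, and 0 of 28 hydrolases met the criterion. None of the genes on these lists had a limma adjusted p under 0.05. The part of monocyte transcripts in the difference of *Ctsl* was not tested.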

How the data were processed

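Transcripts of PBMCs cultured with 4 plasmas were measured on 8 Affymetrix rat expression arrays. The authors made the deposited log2 values with Expression Console and Robust Multichip Analysis (background correction, quantile normalization and summary of the probes of a probe set), and the processing notes also name Partek. Versions were not given in the sources used here. No depth exists for arrays, and 2 arrays per group limit the precision. Of 31042 probe sets 20826 had 1 gene symbol, 436 several and 9780 none in the GEO platform annotation, and no further scaling was applied.

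The study's Rank Product criterion was run in Python 3.11.15 on all 4 between-array ratios, with 100 permutations of values within arrays and a 1-sided p. A 4-group limma model (limma 3.58.1, R 4.3.3) took in all 8 arrays and left out the donor, and its p-values were adjusted over all probe sets. Both were checked on simulated data. Members of several probe sets (11 of 44) are given by the brightest. The members and lists were chosen with earlier results of these data known. Genes named were up to 10 members per comparison that met the criterion in the same direction in both donors, the 3 members with the widest range, a set of textbook members, and up to 4 genes of a related list. Other members past the criterion or discussed for 1 donor were chosen after their values were seen.

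The replicate number is the donor, as the titles state. As a check, same-number arrays were compared by their deviation from the group mean, with correlations of 0.24, 0.059 and 0.165 among the SD plasmas and of -0.00387, -0.0833 and -0.171 with autologous plasma, whose labels disagree on the donor. Alternatives were ratios within donor, donor in the fit, a 2-sided p, the mean of probe sets, a filter at the 40th percentile, centring or quantile normalization again, an intensity trend with robust moderation, the compared arrays alone and each array left out.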

Additional observations from a re-analysis of the deposited data

How the results depend on the processing

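For control with autologous plasma the criterion gave 9 or 10 members under every alternative run, against 10, and these were not always members of the 10: without the BN1 array of control *Atp6v1g3* and *Lamp3* were lost and *Ctsq* (0.57) was gained. With ratios within donor (the replicate block) the counts were the same in all 4 comparisons (1, 3, 3 and 10). Donor in the fit left 4 members past limma's adjusted p for control with autologous plasma and 0 in the other comparisons. These were the same counts as without the block, so that pairing by array number changed no call. For control with autologous plasma the block used a donor number on which the labels disagree, so it cannot show there whether pairing matters. The limma count for control with autologous plasma was 2 with the compared arrays alone, 7 with an intensity trend and robust moderation, and 1 to 4 with an array left out. With probe sets under the 40th percentile left out, *Atp6v1a* (limma adjusted p = 0.0309) and *Ctsh* (limma adjusted p = 0.0432) passed besides the 4. With genes under the 40th percentile left out, the criterion gave 0 members for 5% IH with control, 1 for 10% IH with control and 1 for 5% IH with 10% IH, since the filter removes *Ctsq*, *Lamp3* and *Atp6v1g2*. With an array left out the counts were 2 to 3 for 5% IH with control, 2 to 4 for 10% IH with control, 2 to 4 for 5% IH with 10% IH and 9 for control with autologous plasma. The median log2 ratio of members was 0.0335 for 5% IH with control after median centring again. With an array left out it was 0.0129 to 0.033 for 5% IH with control, -0.0224 to 0.033 for 10% IH with control, -0.0368 to 0.0295 for 5% IH with 10% IH and 0.0431 to 0.0983 for control with autologous plasma. The ratio of *Ctsq* for 10% IH with control was 0.02 without the BN2 array of control and ranged from -0.58 to 0.02 with an array left out. The cause was not tested. Of 17 single-gene calls, 7 held under every alternative run, all of them for control with autologous plasma. They were *Ctsl*, *Ctsz*, *Ctsb*, *Ctsh*, *Atp6ap2*, *Atp6v1a* and *Atp6v1b2*. No call in a comparison of an IH plasma held under every alternative. Low signal limits the 9 members under the 40th percentile.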
